A study of Mus musculus with 2 samples.

Results

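Genes of macrophages, conventional dendritic cells and plasmacytoid dendritic cells were examined in RNA from Th1 cell cultures. The set was 10 genes picked by symbol from the 24421 genes listed for each library, namely Csf1r, Mrc1, Lyz2, Cd68, Cd14, Fcer1g, Tyrobp, Flt3, Zbtb46 and Siglech, and all 10 were found. The question was which antigen-presenting cells could be left in each culture. Naïve CD4 T cells of C57BL/6J mice, either wild type (WT, Chi3l1+/+) or Chi3l1 knockout (KO, Chi3l1-/-), were activated on plate-bound anti-CD3 and anti-CD28 and skewed toward Th1 in vitro with IL-12, IL-2 and an antibody to IL-4, so that no antigen-presenting cells were added by the protocol. The mice of the study were 6 to 8 weeks old, and the number of mice behind each library is not given in the sources used here. The starting cells were selected for CD4 and CD62L, a step that leaves a small share of other cells. There was 1 library of each genotype (n = 1), so every difference below lacks a replicate check, and no test between genotypes was possible.

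Chi3l1 itself, listed as Chil1, had 1 read in the WT Th1 library and 103 reads in the Chi3l1 KO Th1 library. This goes against the label, and which part of the gene the targeting removes is not given in the sources used here. The second library is therefore called the library labelled KO, and every direction below rests on that label. The reads summed to 70551752 in WT Th1 and 62890727 in the library labelled KO. All 10 T cell identity genes were detected in each library, with 335328 and 322594 summed reads, and none differed by 2-fold. The largest difference among them was that of Cd5, which was 1.44-fold lower in the library labelled KO (32196 and 22413 reads). Ifng, the defining cytokine of Th1 cells, had 3478 and 8719 reads, a ratio of 2.50 (exact binomial 95% interval 2.41 to 2.60). The 6 Th1 genes counted did not share a direction, as 4 had an interval above 1 and 2 an interval below 1 (Tbx21 and Cxcr3). At many reads a small difference leaves 1 outside, as for Cd3e with a ratio of 0.947 (0.933 to 0.962). Of the 10 T cell identity genes, 2 had an interval above 1 and 4 below. The share of all genes with such intervals was not counted, so here and below nothing particular to a list is read from them. Cxcr3 had 273 and 116 reads, a ratio of 0.424 (0.338 to 0.529).

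Macrophages and dendritic cells take up, process and present antigen. Macrophages depend on CSF1 signaling through the receptor CSF1R, whereas dendritic cells develop under FLT3 ligand and its receptor FLT3. The transcription factor ZBTB46 marks conventional dendritic cells, and the lectin Siglec-H marks mouse plasmacytoid dendritic cells. FCER1G and TYROBP (DAP12) are small adaptors whose ITAM motifs carry the signals of activating receptors in myeloid cells, mast cells, basophils and NK cells. Several of these genes are thus not particular to a single cell type.

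The 10 genes were low in both libraries. They held 987 reads in WT Th1, which is 0.00140% of all reads, and 865 reads in the library labelled KO, which is 0.00138%. A gene was called detected from 3 reads upward, because a count of 0 allows up to 3 reads. By this measure 8 of the 10 were detected in WT Th1, 7 in the library labelled KO and 6 in both. Over all 24421 genes, 14662 were detected in WT Th1 and 14547 in the library labelled KO. Nothing particular to the members or to a list below is read from the number of its genes detected. Per kilobase of the longest coding transcript, Fcer1g was the most abundant in both libraries, followed by Cd68 and Tyrobp. In WT Th1, Fcer1g had 432 reads per kb (exact Poisson 95% interval 384 to 484, counting error only), Cd68 had 327 (296 to 360) and Tyrobp had 193 (159 to 231). The intervals of these 3 levels did not overlap. Lyz2 with 25.8 reads per kb (17.9 to 36.1) and Csf1r with 20.6 (16.7 to 25.2) came next and overlapped, as did Cd14 with 7.31 (3.78 to 12.8), Flt3 with 4.92 (2.92 to 7.78) and Zbtb46 with 2.64 (1.44 to 4.42), taken as neighbours. For scale, the Fcer1g level per kb was 1.95% of that of the T cell receptor subunit Cd3e in WT Th1 and 1.26% in the library labelled KO.

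In the library labelled KO the order after the first 3 genes was different. Fcer1g had 265 reads per kb (228 to 307) and Cd68 had 243 (216 to 272), which overlapped, and Tyrobp had 107 (82.6 to 137). Csf1r with 37.0 (31.7 to 42.9) was next. Flt3 with 18.6 (14.4 to 23.6) stood above Zbtb46 with 9.04 (6.67 to 12.0), without overlap. Mrc1 with 5.40 (3.61 to 7.75) overlapped Zbtb46, and Lyz2, last among the genes above 0 with 1.52 (0.184 to 5.49), overlapped Mrc1.

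**Figure D1:**
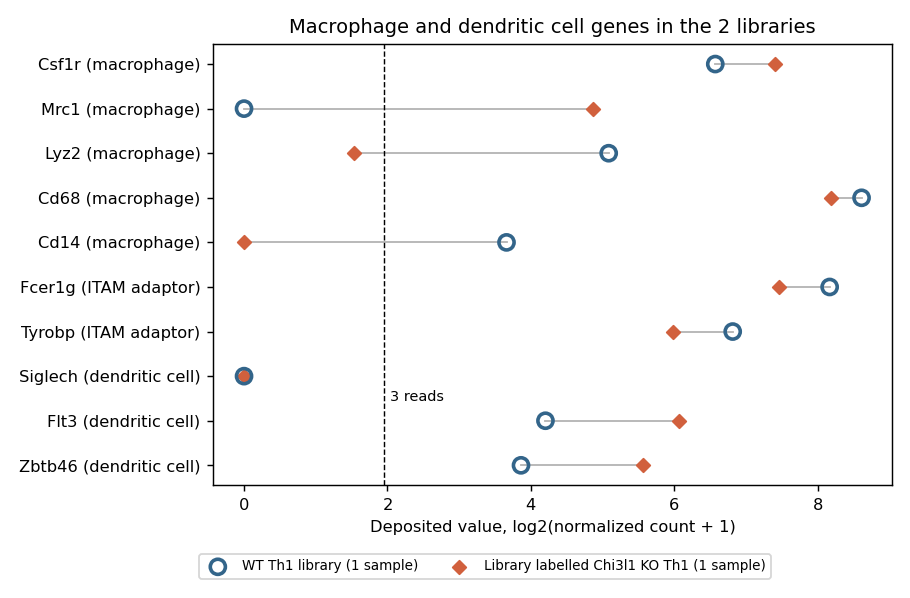
Deposited value of each gene, log2(normalized count + 1), in the WT Th1 library (open circles) and the library labelled Chi3l1 KO Th1 (diamonds), 1 sample each, with the value of 3 reads as a dashed line. Fcer1g and Cd68 are the highest in each library, Mrc1 is at 0 in WT Th1 only, Cd14 is at 0 in the library labelled KO only, and Siglech is at 0 in both.

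Of the 10 genes, 3 were higher at least 2-fold in the library labelled KO (Mrc1, Flt3 and Zbtb46) and 2 were lower at least 2-fold (Lyz2 and Cd14). Over all 24421 genes, 4.7% were higher and 5.81% were lower at least 2-fold. The median difference of the deposited log2 values, library labelled KO minus WT, was -0.21 over the 10 genes and 0 over all genes. The 2-fold line is crossed more often by genes with few reads. Where the larger of both log2 values lay from 4 to 6, as for Mrc1, Zbtb46 and Lyz2, 14.4% of genes were higher and 19.3% lower. From 2 to 4, as for Cd14, 33.0% were lower, and from 6 to 8, as for Flt3, 6.6% were higher. Nothing particular to the 10 genes is read from these counts. For the cell type and pathway lists below, a second count was taken with every count under 3 reads set to 3, a rule chosen after the data were seen. By it the same 3 and 2 members were past 2-fold, against 2.99% of all genes higher and 4.28% lower. Where the larger log2 value lay from 2 to 4, these shares were 15.2% and 25.4%. Nothing particular to a list is read from its count.

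**Figure D2:**
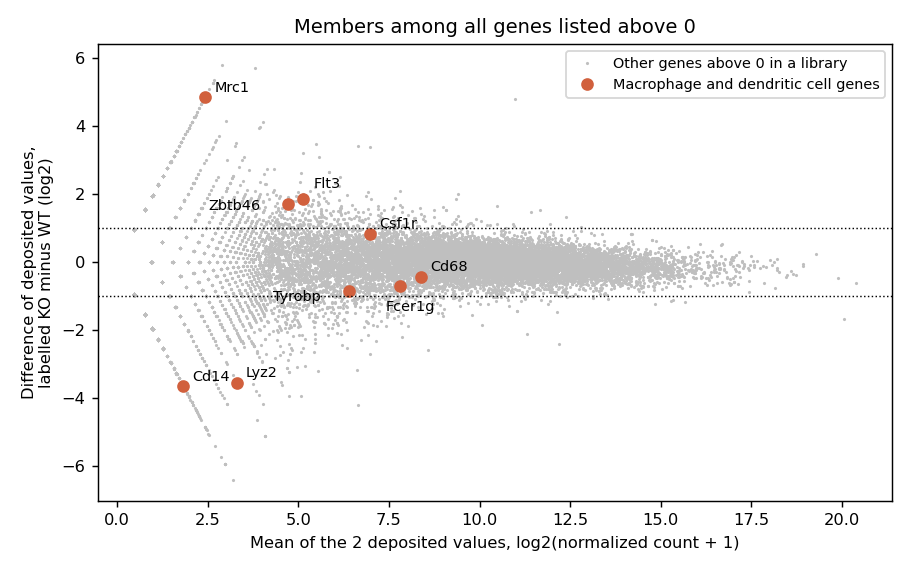
Difference of the deposited values (library labelled KO minus WT, log2) against their mean for every gene above 0 in a library (grey points) and the 9 members above 0 (orange points), with dotted lines at 2-fold. Mrc1, Flt3 and Zbtb46 lie above the upper line, Lyz2 and Cd14 below the lower line, and the other 4 lie between the lines.

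Macrophage genes did not move in one direction. Csf1r (chromosome 18, plus strand), the receptor for CSF1 and IL-34, had 97 reads in WT Th1 and 174 reads in the library labelled KO, with log2 values of 6.57 and 7.41. It was 1.79-fold higher in the library labelled KO, with an exact binomial (Clopper-Pearson) 95% interval from 1.39 to 2.32 that covers read sampling only. A limit applies to this gene, since 15.1% of its exon bases in the annotation also belong to exons of Hmgxb3 on the opposite strand. Hmgxb3 had 6505 and 6562 reads, and whether strand was used in counting is not given in the sources used here. The share of Csf1r reads that come from Hmgxb3 was not tested.

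Mrc1, the mannose receptor of tissue macrophages and some dendritic cells (chromosome 2, 14229392 to 14332057, plus strand, GRCm38), had 0 reads in WT Th1 and 29 reads in the library labelled KO. Set against the 3 reads that a count of 0 allows, it was at least 9.65-fold higher. Its paralog Mrc2 had 0 and 3 reads. Of 7 genes known to accompany Mrc1 in alternatively activated macrophages, none was higher in the library labelled KO. Arg1, Retnla, Mgl2, Clec10a and Ccl24 were at 0 in both libraries. Chil3 (Ym1), a chitinase-like protein, differed in the direction opposite to Mrc1, with 17 reads in WT Th1 and 0 in the library labelled KO. With 0 set to 3 reads it was 5.68-fold lower, and the interval began at 4.13-fold. Pdcd1lg2 (PD-L2) had 775 and 626 reads.

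Lyz2, lysozyme of macrophages and neutrophils (chromosome 10, 117277331 to 117282321, minus strand, GRCm38), had 34 reads in WT Th1 and 2 reads in the library labelled KO. It was 17.0-fold lower there, with a wide interval from 4.37-fold to 146-fold. Of the 100-base windows of the Lyz2 transcript, 1.97% are shared with its paralog Lyz1, which had 1 read and 0 reads. Cd14 (chromosome 18, minus strand), the co-receptor that hands lipopolysaccharide to TLR4, had 12 reads in WT Th1 and 0 in the library labelled KO. With 0 set to 3 reads, Cd14 was 4.01-fold lower, and its interval began at 2.78-fold. Of its partners, Tlr4 had 1 read and 0 reads, and Ly96 had 12 and 13.

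Cd68, a lysosomal membrane protein that is abundant in macrophages and weaker in many other cells (chromosome 11, 69664213 to 69666153, minus strand, GRCm38), had 402 reads in WT Th1 and 299 in the library labelled KO. It was 1.35-fold lower in the latter (1.16 to 1.57). Its relatives Lamp1 and Lamp2, which every cell uses in lysosomes, differed by 0.14 and 0.10 on the log2 scale of the deposited values. In total the 5 macrophage genes had 545 and 504 reads, with Csf1r and Mrc1 higher in the library labelled KO and Lyz2, Cd14 and Cd68 lower.

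**Figure D3:**
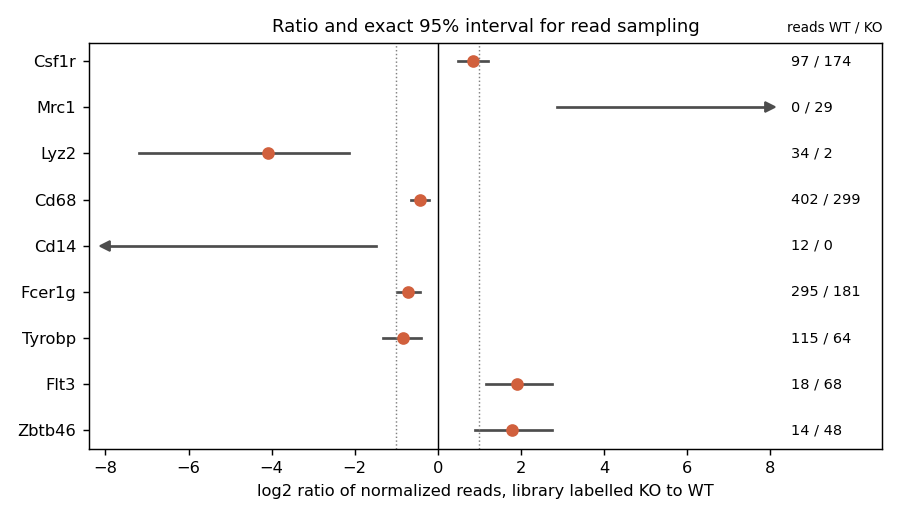
Log2 ratio of normalized reads, library labelled KO to WT, with exact binomial 95% intervals for read sampling, for the 9 genes with reads. Arrows mark the genes with 0 reads in one library, dotted lines mark 2-fold, and the reads of both libraries stand at the right. The interval of Flt3 lies beyond the upper 2-fold line and that of Lyz2 beyond the lower one, while that of Zbtb46 crosses the line at its lower end.

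Of the 10 genes, 7 were matched in the RefSeq promoter table. Among the macrophage genes matched there, Mrc1 was the one past 2-fold in the higher direction and Lyz2 the one in the lower. The 250 bases before their RefSeq transcription starts are therefore shown (GRCm38.p6). These starts lie inside the GENCODE gene positions given above, so the last bases of each window fall within those positions. Capitals mark GAGGAAG, the letters bound by PU.1, and TTNNGNAA, letters bound by C/EBP factors, on either strand. PU.1, encoded by Spi1, and C/EBPα, encoded by Cebpa, are the main transcription factors of the myeloid lineage.
Mrc1, chr2:14229164-14229413, plus strand: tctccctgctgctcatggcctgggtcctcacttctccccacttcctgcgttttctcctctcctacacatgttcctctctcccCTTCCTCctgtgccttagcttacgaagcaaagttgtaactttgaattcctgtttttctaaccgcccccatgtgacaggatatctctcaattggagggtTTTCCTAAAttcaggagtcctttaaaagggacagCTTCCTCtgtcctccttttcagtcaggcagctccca
Lyz2, chr10:117282273-117282522, minus strand: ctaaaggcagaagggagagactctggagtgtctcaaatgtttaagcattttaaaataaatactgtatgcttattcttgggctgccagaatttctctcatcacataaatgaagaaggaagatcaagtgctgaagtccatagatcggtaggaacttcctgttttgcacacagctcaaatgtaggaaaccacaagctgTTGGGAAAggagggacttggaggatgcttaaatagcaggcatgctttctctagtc

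The Mrc1 window held GAGGAAG on the opposite strand from 168 to 162 bases and from 36 to 30 bases before the start. It also held overlapping TTNNGNAA matches on that strand, from 70 to 62 bases before the start. The Lyz2 window held TTNNGNAA once, from 55 to 48 bases before the start, and no GAGGAAG. Of the 32851 promoters of this length in the table, 10.6% hold GAGGAAG and 36.8% hold TTNNGNAA, so the latter is common. These are matches of letters only. Spi1 had 66 reads in WT Th1 and 125 in the library labelled KO, a ratio of 1.89 (1.39 to 2.59). Cebpa had 54 reads and 0 reads. With 0 set to 3 reads it was 18.0-fold lower in the library labelled KO, and the interval began at 14.2-fold.

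The 2 adaptors were both lower in the library labelled KO, by less than 2-fold. Fcer1g, the γ chain of Fc receptors (chromosome 1, 171229572 to 171234365, minus strand, GRCm38), had 295 reads in WT Th1 and 181 reads in the library labelled KO. The difference was 1.63-fold (1.35 to 1.98). Tyrobp (chromosome 7, 30413760 to 30417585, plus strand, GRCm38) had 115 and 64 reads, a difference of 1.80-fold (1.31 to 2.48). No window of 100 bases of either transcript is shared with another gene. The neighbouring adaptor Hcst (DAP10), which T cells also use, had 2051 and 1393 reads. The T cell receptor adaptor Cd247 had 34292 and 39104 reads.

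The receptors known to pair with these adaptors had few reads. Of 20 such receptors, 12 were detected in WT Th1 and 9 in the library labelled KO, against 14662 and 14547 of all 24421 genes. The receptors summed to 241 and 305 reads. On the deposited values 8 were past 2-fold in the lower direction and 4 in the higher one. With counts under 3 reads set to 3, these were 5 (Clec4e, Clec4n, Clec4d, Pira2 and Pilrb1) and 2 (Oscar and Klrk1). The C-type lectins Clec4n (Dectin-2) and Clec4e (Mincle), which sense fungal and mycobacterial sugars, had 25 and 20 reads in WT Th1 and 3 and 4 reads in the library labelled KO. Oscar, a collagen receptor, had 9 and 35 reads, a ratio of 3.88 (1.83 to 9.18). Klrk1 (NKG2D), which NK cells and activated T cells carry, had 86 and 188 reads, the most of any receptor in this list. Without Klrk1 the receptors summed to 155 reads in WT Th1 and 117 in the library labelled KO, so the higher sum rests on this gene. Ncr1 had 0 and 6 reads, and Trem2 had 1 and 3. The Fc receptors of this list were scarce, and Fcgr3 had the most reads of them, with 12 and 19. Fcgr1 had 0 reads and 1 read, Fcgr4 was at 0 in both, and Fcer1a had 4 reads and 0 reads.

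Several kinases and effectors below the adaptors were higher in the library labelled KO. Lyn, a Src kinase of myeloid and B cells, had 127 reads in WT Th1 and 321 reads in the library labelled KO, a ratio of 2.52 (2.05 to 3.12), and Syk had 501 and 847, a ratio of 1.69 (1.51 to 1.89). Of the 9 kinases and effectors counted, 4 had an interval above 1 (Syk, Lyn, Blnk and Plcg2), 1 had an interval below 1 (Lcp2), and 4 had an interval that held 1. Lyn was the 1 gene past 2-fold, and the median difference was 0.31 on the log2 scale. Blnk, the adaptor of the B cell receptor, had 223 and 436 reads, a ratio of 1.95 (1.66 to 2.30). Zap70, the T cell counterpart of Syk, had 83046 and 83244 reads, and Lcp2 (SLP-76), an adaptor of T cells, had 36449 and 28626. The B cell receptor chains Cd79a and Cd79b, which also carry ITAM motifs, were higher as well, with 267 and 475 reads for Cd79a and 268 and 323 for Cd79b. Syk, Lyn, Blnk and Plcg2 are known in B cells too, whose markers were higher in the same library.

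Markers of other cells that carry these adaptors moved in the same or the opposite direction. Of 8 mast cell and basophil genes, 5 were past 2-fold in the lower direction on the deposited values and none in the higher. With counts under 3 reads set to 3 these were 4 (Prss34, Mcpt8, Gata2 and Cpa3), and the interval of Cpa3, with 11 and 5 reads, held 1. The list summed to 653 reads in WT Th1 and 307 in the library labelled KO, with Ms4a2 and Tpsb2 at 0 in both. The basophil proteases Prss34 and Mcpt8 had 200 and 85 reads in WT Th1 against 34 and 14, and the transcription factor Gata2 had 232 against 67. Kit, the stem cell factor receptor of mast cells and progenitors, differed the other way, with 121 and 187 reads, a ratio of 1.54 (1.22 to 1.96). The common β chain of the IL-3 and GM-CSF receptors, Csf2rb, had 241 against 48 reads. Of 7 NK cell genes, 4 were past 2-fold in the higher direction and 1 in the lower on the deposited values. With counts under 3 reads set to 3 these were 2 (Klra8 and Gzma) and 1 (Cma1, with 7 reads and 0 reads). Their sum was 2167 and 2845 reads, but Eomes, a transcription factor that T cells also express, held 2108 and 2737 of these, and the other 6 genes summed to 59 and 108. Of 9 neutrophil genes, 6 were past 2-fold in the lower direction on the deposited values, 4 with counts under 3 reads set to 3 (Ngp, Csf3r, Elane and Mpo), and none in the higher. The interval of Csf3r, with 23 and 11 reads, held 1. The 9 genes summed to 107 reads in WT Th1 and 16 in the library labelled KO, with Camp and Retnlg at 0 in both. The sums of the mast cell and basophil list and of the neutrophil list were lower, as were Fcer1g, Tyrobp, Lyz2 and Cd14, whereas the NK cell sum was higher. The part of these cells in the differences of the members was not tested. In such bulk samples, fewer cells of a type and less RNA per cell cannot be told apart.

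The dendritic cell genes Flt3 and Zbtb46 were both higher in the library labelled KO. Flt3 (chromosome 5, 147330741 to 147400489, minus strand, GRCm38), the growth factor receptor of dendritic cells and their progenitors, had 18 reads in WT Th1 and 68 reads in the library labelled KO. It was 3.77-fold higher (2.22 to 6.74). Zbtb46 (chromosome 2, 181387762 to 181459426, minus strand, GRCm38) had 14 and 48 reads and was 3.42-fold higher (1.86 to 6.72). Siglech (chromosome 7, 55768178 to 55778925, plus strand, GRCm38) had 0 reads in both libraries, which allows up to 3 reads in each, and no ratio can be given.

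The further genes of the dendritic cell subsets, listed apart from the members, were low or at 0. Of 6 genes of conventional dendritic cells type 1, 3 were detected in WT Th1 and 4 in the library labelled KO, whereas Clec9a and Tlr3, of which Clec9a is a defining marker, were at 0 in both. The gene detected only in the library labelled KO was the defining chemokine receptor Xcr1, with 0 and 5 reads. Wdfy4, needed for cross-presentation and also known in B cells, held most of these reads with 179 and 332, a ratio of 1.85 (1.54 to 2.23). Of 7 genes of type 2 cells, 2 were detected in each library, Sirpa and Clec12a in WT Th1 and Sirpa and Esam in the library labelled KO, and Cd209a, Clec4a4, Mgl2 and Clec10a were at 0 in both. Sirpa, the receptor for CD47 on myeloid cells, differed in the direction opposite to Flt3 and Zbtb46, with 332 reads in WT Th1 and 50 in the library labelled KO, a ratio of 0.150 (0.109 to 0.203).

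Genes shared by conventional dendritic cells were detected throughout, and most of their reads lay in genes that T cells also express. All 8 were detected in both libraries, 4 had at least 1000 reads in both (Irf8, Irf4, Id2 and Dpp4), and 4 had an interval above 1 and 4 an interval below 1. The transcription factors Irf8 and Irf4 had the most, with 32804 and 40793 reads for Irf8 and 30992 and 36587 for Irf4. Batf3, a transcription factor of type 1 cells, had 258 and 352 reads, a ratio of 1.36 (1.16 to 1.61). Kmo, an enzyme of tryptophan breakdown, had 28 and 49 reads, a ratio of 1.75 (1.08 to 2.89). Itgax (CD11c), the integrin of dendritic cells, was the 1 gene past 2-fold, with 44 and 5 reads, a ratio of 0.113 (0.0351 to 0.285). Of 8 genes of mature dendritic cells, 7 were detected in WT Th1 and 6 in the library labelled KO. The chemokine receptor Ccr7, which naïve T cells carry too, held most of these reads with 111805 and 99546. Cd83 was the 1 gene with an interval above 1, with 964 and 1601 reads, a ratio of 1.66 (1.53 to 1.80). By contrast, 5 had an interval below 1 (Fscn1, Ccl17, Ccl22, Cacnb3 and Ccr7). The chemokine Ccl17 had 9 reads and 0 reads and was the 1 gene of this list past 2-fold. With 0 set to 3 reads it was 3.01-fold lower, and the interval began at 1.98-fold.

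Genes linked to plasmacytoid dendritic cells were detected without Siglech. Of 11 such genes, 9 were detected in WT Th1 and 11 in the library labelled KO, and 4 had at least 1000 reads in both, namely Pacsin1, Bst2, Irf7 and Runx2. Spib, a transcription factor of plasmacytoid dendritic cells and B cells, had 128 and 415 reads, a ratio of 3.24 (2.65 to 3.98). Tcf4, which drives the plasmacytoid lineage, had 473 and 348 reads, a ratio of 0.734 (0.638 to 0.845). The list thus held genes on both sides, with 3 past 2-fold in the higher direction on the deposited values and none in the lower. With counts under 3 reads set to 3 these were 2, namely Spib and Klk1, which had 0 and 9 reads. Cox6a2 had 0 and 4 reads, too few to place it beyond 2-fold.

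B cell genes differed in the same direction as Flt3, Zbtb46 and Csf1r. All 7 B cell genes counted were higher in the library labelled KO, 2 of them at least 2-fold (Ebf1 and Blk), and the list summed to 1060 reads in WT Th1 and 1767 in the library labelled KO, with no gene at 0. Ebf1, a transcription factor of the B lineage, had 167 and 357 reads, a ratio of 2.13 (1.77 to 2.58). Lyn, Spib and Spi1 are also known in B cells, and the part of B cells in these differences was not tested.

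Monocyte and macrophage genes outside the 10 gave no common direction. Of 17 macrophage genes, 5 were detected in WT Th1 and 4 in the library labelled KO. Defining genes of tissue macrophages were at 0 in both, namely Adgre1 (F4/80), the complement genes C1qa, C1qb and C1qc, Cd163, Vsig4, Marco, Timd4 and Ms4a7, and Mertk had 3 reads and 0 reads. In this list 1 gene was past 2-fold in the higher direction, Aif1 with 2 and 11 reads. On the deposited values 3 were in the lower direction, of which 1 (Cebpa) was left with counts under 3 reads set to 3. Csf2ra, the GM-CSF receptor chain, held most reads of the list with 676 and 413. Of 10 monocyte genes, 9 and 8 were detected. With counts under 3 reads set to 3, 2 were higher (Ccr2 and Vcan) and 1 lower (Fn1) at least 2-fold, none of them above 15 reads, and on the deposited values 2 were lower. Most reads of that list came from Ly6c2, which activated T cells also express, with 1669 and 1606 reads. Itgam (CD11b), the integrin of monocytes and neutrophils, had 163 and 93 reads, a ratio of 0.570 (0.437 to 0.739). Ms4a6c had 378 and 376 reads.

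**Figure D4:**
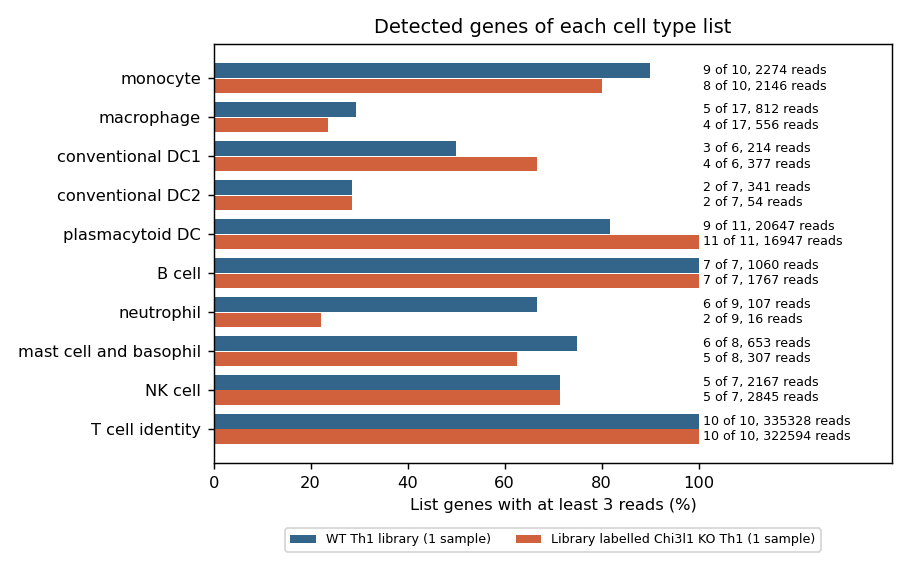
Share of the genes of each cell type list with at least 3 reads in the WT Th1 library (blue) and the library labelled Chi3l1 KO Th1 (orange), 1 sample each, with the number of genes detected and the summed reads at the right. Macrophage genes are detected for 5 of 17 and 4 of 17 genes, B cell genes for 7 of 7 in both, and neutrophil genes for 6 of 9 and 2 of 9. Over all 24421 genes, 14662 and 14547 have at least 3 reads.

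Ligands of the receptors were present in both cultures. Flt3l, the ligand of FLT3, had 2638 reads in WT Th1 and 1888 in the library labelled KO, a ratio of 0.714 (0.673 to 0.758). Csf1 had 470 and 289 reads, a ratio of 0.614 (0.528 to 0.712), and Il34 was at 0 in both. Both ligands were thus lower while Flt3 and Csf1r were higher. These ratios are not corrected for a trend with GC content across all genes. At 56.5% GC, that of Flt3l, the median log2 difference was -0.221, beside -0.485 for Flt3l. At 54.6% GC, near the 54.4% of Csf1, it was -0.14, beside -0.702 for Csf1. The T cell cytokines that feed myeloid cells were higher instead. Csf2 (GM-CSF) had 84 and 127 reads, a ratio of 1.51 (1.14 to 2.01), and Il3 had 67 and 161 reads, a ratio of 2.40 (1.79 to 3.24).

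Antigen presentation genes were detected in both cultures. All 10 MHC class II genes were detected in both libraries, with 23712 and 23683 summed reads, of which the invariant chain Cd74 held 18556 and 18280. Of the 10, 6 had an interval above 1 and 3 an interval below 1. H2-DMb2 was the 1 gene past 2-fold, with 67 and 187 reads, a ratio of 2.79 (2.10 to 3.74). H2-Aa had 494 and 835 reads, a ratio of 1.69 (1.51 to 1.89), whereas the class II transactivator Ciita had 545 and 294, a ratio of 0.539 (0.466 to 0.622). Among 9 genes of costimulation by antigen-presenting cells, 3 were higher (Cd40, Icosl and Tnfsf4) and 2 lower (Il12b and Il15) at least 2-fold. Il12b had 9 and 4 reads and Il15 had 7 and 3, and the intervals of both held 1. Cd40 had 454 and 996 reads, a ratio of 2.19 (1.96 to 2.45), and Cd86 had 36 and 35.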

How the data were processed

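Libraries were made by the authors from polyadenylated RNA and sequenced as read pairs, and reads were mapped with TopHat to mm10 (the submitters' processing notes). The authors ran edgeR on counts of unique and multiple alignments. The deposited tables give 1 value per gene, read from the values as log2 of a normalized count plus 1. Reads were rebuilt with a fitted step of 0.970 (WT Th1) and 0.969 (library labelled KO) normalized counts per read, and 100% of values under 200 fell within 0.2 of a whole read.

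The ratio of normalized reads was given with exact binomial 95% intervals, which cover counting error only. For genes with 0 reads in a single library, 0 was set to 3 for the fold, which leaves out counting error in the other library. The 95% interval printed beside that fold therefore begins below it. Lengths, GC content and gene positions came from GENCODE M21 (GRCm38, the build of mm10) and promoters from RefSeq. Named genes are the 10 members and, from each list, those with at least 20 reads in a library, up to 4 with the highest value and up to 4 with the largest change in each direction, plus genes at 0. Other genes with under 20 reads, and Hmgxb3, were named after their values were seen. A few genes of the lists are not reported here and enter no count. The members and lists were chosen with earlier results of these data known. The scripts were tested on simulated data. Intervals were computed with scipy 1.17.1 and tables with pandas 2.3.3 in Python 3.11.15.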

Additional observations from a re-analysis of the deposited data

How the results depend on the processing

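The 3 members higher and 2 lower at least 2-fold were counted again under each alternative. At 1.5-fold, 4 were lower, and with at least 3 reads in both libraries 0 were lower, because Lyz2 and Cd14 had fewer than 3 reads in the library labelled KO. The counts over all genes, 1147 higher and 1418 lower, moved to 334 and 481 with a pseudocount of 10, to 2345 and 2795 at 1.5-fold, to 573 and 733 at 3-fold, to 730 and 1044 with counts under 3 reads set to 3 (chosen after seeing the data), to 594 and 798 with at least 10 reads in a library, and to 535 and 695 with at least 3 reads in both. Of the antigen-presenting cell lists, 8 genes higher and 9 lower became 2 and 4 with a pseudocount of 10, and 5 and 6 with counts under 3 reads set to 3. No member changed direction under a pseudocount of 0.1 or 10, quantile normalization, scaling by median ratios, to Actb or to the T cell identity list, or removal of the trend with GC content. That trend was taken over genes with log2 values of at least 8 in both libraries. Its median log2 difference ran from 0.236 at 39.4% GC to -0.463 at 61.2% GC, and the ratios above keep it. With a pseudocount of 10 the log2 difference of Mrc1 moved from 4.86 to 1.93, that of Lyz2 from -3.56 to -1.85 and that of Cd14 from -3.66 to -1.11. Scaling to Actb shifted the median of well-detected genes by 0.11 on the log2 scale. No paired analysis was possible because each genotype had 1 library. Depth limits Mrc1, Lyz2, Cd14, Flt3 and Zbtb46, which had at most 68 reads.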
